A study of Rattus norvegicus with 8 samples.

Results

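The genes described here encode the precursors of secreted neuropeptides outside the tachykinin family: Oxt (oxytocin), Vip (vasoactive intestinal peptide), Vgf (the granin-like precursor VGF), Nts (neurotensin) and Adcyap1 (pituitary adenylate cyclase activating polypeptide, PACAP). A probe set, the group of array probes that report 1 transcript, was taken as a member when its only annotated gene symbol was one of these names. Each gene had 1 such probe set, giving 5 of the 379 probe sets in the deposited table. RNA came from the habenula, a small paired nucleus of the epithalamus, of male Sprague-Dawley rats, and 1 Affymetrix whole-transcript array was run per rat. The chronic stress group held 4 rats (numbers 7, 8, 10 and 12) put into plastic film envelopes daily, 2 hours each time, on 14 days. The non-stress group was 4 home-cage rats (numbers 1, 3, 4 and 5). No source used here gives the rats' age.

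Neuropeptides are made as long precursors, cut at basic residues by convertases in the secretory pathway, stored in dense-core vesicles and released on strong or repeated firing. They act mostly through G protein-coupled receptors, at a distance and over a longer time than fast transmitters. The medial habenula is known for its cholinergic and substance P neurons projecting to the interpeduncular nucleus, and the lateral habenula for glutamatergic output to midbrain aminergic centres. Oxytocin is best known from magnocellular and paraventricular neurons of the hypothalamus, VIP from the suprachiasmatic nucleus and cortical interneurons, and both PACAP and neurotensin from many forebrain circuits.

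The table had been chosen on the comparison between stress and non-stress. In the authors' deposited table no p-value was above 0.0499 and no absolute log2 difference was below 0.26 (1.20-fold). For the 5 members the authors' deposited table gives unadjusted p-values between 5.51e-05 (Vip) and 0.0261 (Nts), and Nts, at a log2 difference of 0.27, lay just inside the smallest difference. Group differences are therefore given below as descriptions without a test, on the log2 scale. Each is the mean of the stressed rats minus that of the non-stress rats, with the standard error from limma, beside means ± SD over 4 rats. The median log2 signal of an array, taken over these 379 chosen probe sets and not over the whole array, was 8.60 to 8.77. It was 8.65, 8.60, 8.65 and 8.68 in stressed rats 7, 8, 10 and 12. In non-stress rats 1, 3, 4 and 5 it was 8.70, 8.77, 8.65 and 8.62. Arrays of the same group differed by a root mean square of 0.146 to 0.270. Of 19 medial habenula markers 11 were among the probe sets, as were 4 of 10 hippocampal and dentate markers, and none of 7 choroid plexus, 6 pineal, 10 thalamic or 16 hypothalamic markers (Avp, Crh and Sim1 among the last) was. Because the table was chosen for a difference, a marker outside it was not analysed here, and its level in the tissue is unknown.

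Of the 5 precursor genes, 4 were higher and 1 was lower in stressed rats. Of all probe sets listed, 44.6% were higher and 55.4% lower. The median member difference was 0.30, where the median over all 379 probe sets was -0.28. Values of the 2 groups did not overlap for 4 members, against 83.4% of the table's probe sets (36.9% not overlapping and higher, 46.4% not overlapping and lower). Since the table was chosen on this same contrast, these shares describe it and are read no further. In bulk tissue, a change in the number of cells of a type and a change in RNA per cell cannot be told apart. This holds for each member, higher or lower.

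**Figure D1:**
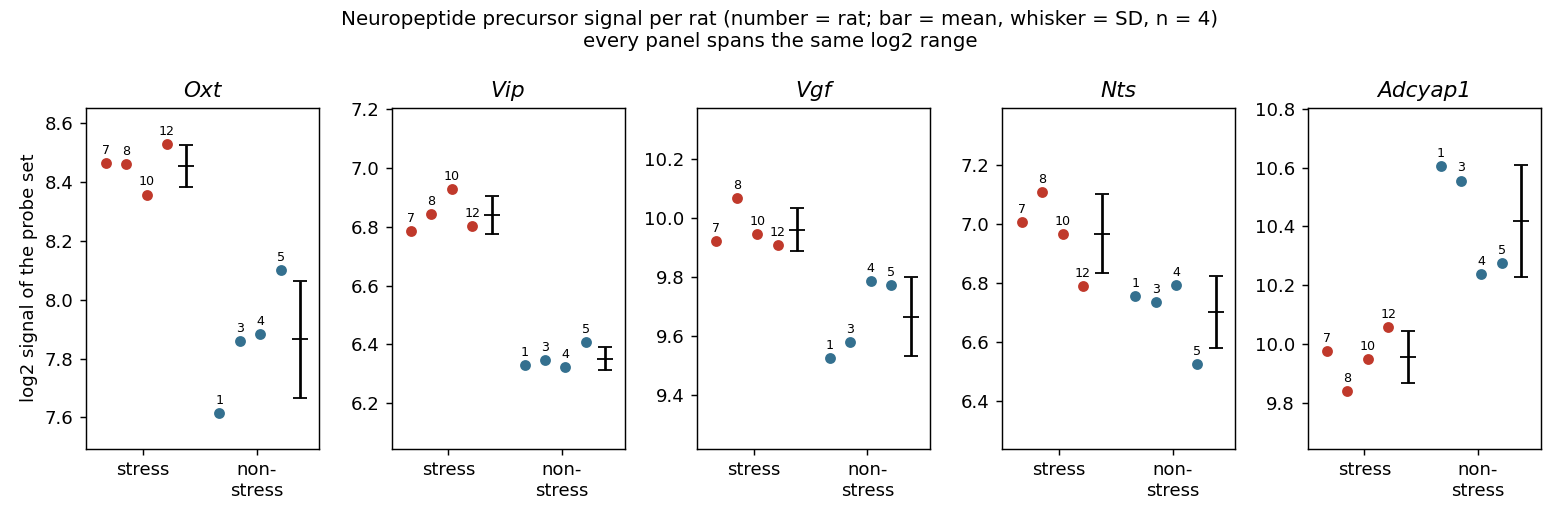
The vertical axis of each panel is the log2 signal of a precursor's probe set, and each point is a rat, labelled with its number, with stressed rats on the left and non-stress rats on the right. Horizontal bars with whiskers are means with SD over 4 rats. Oxt, Vip and Vgf lie higher in all 4 stressed rats and Adcyap1 lower, while for Nts stressed rat 12 (6.79) falls among the non-stress rats.

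Oxt had the largest difference of the members. Its log2 signal was 8.47, 8.46, 8.36 and 8.53 in stressed rats 7, 8, 10 and 12, against 7.62, 7.86, 7.89 and 8.10 in non-stress rats 1, 3, 4 and 5. The lowest stressed rat lay 0.26 above the highest non-stress rat. The means were 8.45 ± 0.07 in stressed and 7.87 ± 0.20 in non-stress rats (SD, n = 4 each), a difference of 0.59 ± 0.10 or 1.504-fold, which ranked 22 among the 169 higher probe sets. The stressed rats were close together, with an SD 0.361 times that of the non-stress rats, whose spread came from rat 1 below and rat 5 above the other two.

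Vip had the tightest values. Its signal was 6.78, 6.84, 6.93 and 6.80 in stressed rats 7, 8, 10 and 12, against 6.33, 6.35, 6.32 and 6.41 in non-stress rats 1, 3, 4 and 5. The gap of 0.38 between the groups was the widest of the 5 members. The means were 6.84 ± 0.06 in stressed and 6.35 ± 0.04 in non-stress rats (SD, n = 4 each), a difference of 0.49 ± 0.08 or 1.40-fold. The spread of Vip within groups was at the 2.37 percentile of the table. Vip was also the dimmest member, and its difference was 0.34 after quantile normalization of the table.

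Vgf encodes a precursor whose synthesis in neurons follows neurotrophins and electrical activity, and which is cut into several bioactive peptides. Its signal was 9.92, 10.07, 9.95 and 9.91 in stressed rats 7, 8, 10 and 12, against 9.52, 9.58, 9.79 and 9.77 in non-stress rats 1, 3, 4 and 5. The groups were separated by 0.12, the narrowest gap among the 4 members whose groups did not overlap. The means were 9.96 ± 0.07 in stressed and 9.67 ± 0.13 in non-stress rats (SD, n = 4 each), a difference of 0.30 ± 0.09 or 1.23-fold. Vgf was itself listed as a lateral habenula marker. Of the 9 other genes in that list 1 was in the table, the orphan receptor Gpr151, which differed by -0.42 ± 0.09.

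Nts, the precursor of neurotensin and neuromedin N, had the smallest difference. Its signal was 7.01, 7.11, 6.97 and 6.79 in stressed rats 7, 8, 10 and 12, against 6.76, 6.73, 6.79 and 6.52 in non-stress rats 1, 3, 4 and 5. Stressed rat 12 lay just under non-stress rat 4, so the groups overlapped. The means were 6.97 ± 0.13 in stressed and 6.70 ± 0.12 in non-stress rats (SD, n = 4 each), a difference of 0.27 ± 0.09 or 1.20-fold, rank 156 of 169. After quantile normalization the difference was 0.15.

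Adcyap1 was the member that went the other way. PACAP belongs to the same peptide family as VIP and raises cAMP through receptors that it partly shares with it. The Adcyap1 signal was 9.98, 9.84, 9.95 and 10.06 in stressed rats 7, 8, 10 and 12, against 10.61, 10.56, 10.24 and 10.27 in non-stress rats 1, 3, 4 and 5. Non-stress rats 1 and 3 stood above rats 4 and 5, and all of them above every stressed rat, by at least 0.18. The means were 9.96 ± 0.09 in stressed and 10.42 ± 0.19 in non-stress rats (SD, n = 4 each), a difference of -0.46 ± 0.10, which is 0.726 times the non-stress signal. It ranked 33 among the 210 lower probe sets.

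The members lay between 6.60 and 10.19 in mean log2 signal, inside a table that ran from 4.56 to 12.43. Mean log2 signals over the 8 rats put Adcyap1 (10.19) at the 82.8 percentile and Vgf (9.81) at the 78.1 percentile of the 379 probe sets. Oxt (8.16) was at the 36.7 percentile, below the table's median of 8.66, and Nts (6.83) and Vip (6.60) were at the 13.7 and 10.03 percentiles. Probes differ in affinity, so these ranks are of probe set signal and do not order the transcripts. Vip and Nts lay in the range of the 21 chemosensory receptor probe sets of the table (4.56 to 7.92, median 6.10), of which 14 were dimmer than Vip and 16 dimmer than Nts. Among the dimmest 25% of the table, 60 of 95 probe sets were higher in stressed rats (63.2%), against 109 of the 284 brighter ones (38.4%). The deposited tables carry no detection call, and whether low signal had a part in the direction of Vip and Nts was not tested.

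**Figure D2:**
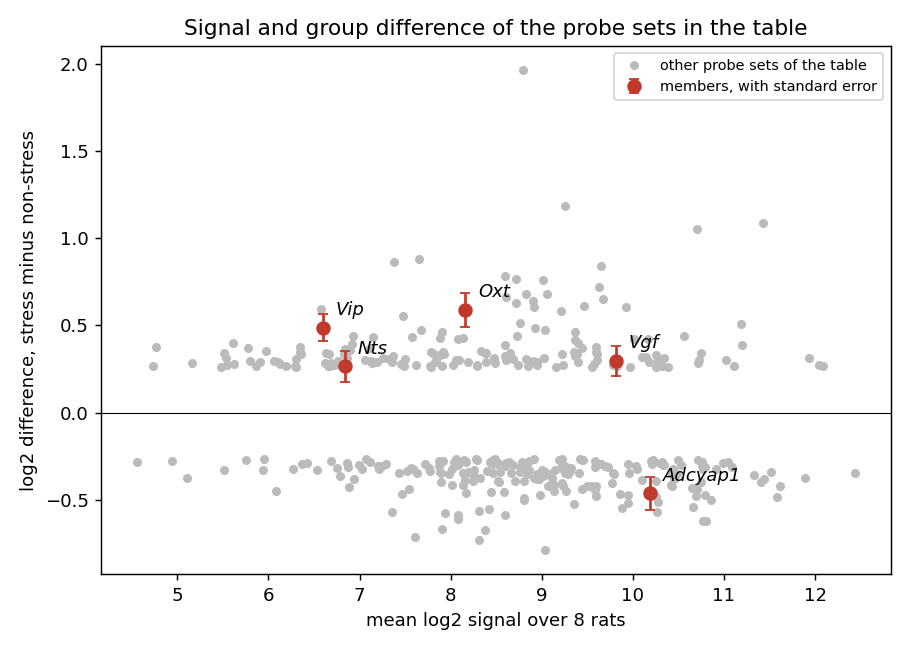
The horizontal axis is the mean log2 signal over 8 rats, and the vertical axis the log2 difference, stress minus non-stress. Grey points are the other probe sets of the table, and red points the 5 members with their standard errors. The empty band around 0 is the choice of the table, whose smallest absolute difference was 0.26, and Vip and Nts stand at the dim end.

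Covariation from rat to rat inside the groups was not used to choose the table. For each of the 10 pairs of members, the deviations of the 8 rats from their group means were correlated, with 2-sided exact permutation of rats within groups and Benjamini-Hochberg adjustment over the 10 pairs. A single pair passed. Adcyap1 and Vgf deviated in opposite directions, with Pearson's r -0.98 (exact permutation p = 0.00174, the smallest that these permutations can give, adjusted p = 0.0174) and Spearman's rho -1 (exact permutation p = 0.00347, adjusted p = 0.0347).

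The rats show the pattern plainly. In the stressed group Adcyap1 was lowest in rat 8, where Vgf was highest, and highest in rat 12, where Vgf was lowest. Among non-stress rats the deviations of Adcyap1 from the group mean were 0.19, 0.14, -0.18 and -0.14 in rats 1, 3, 4 and 5, and those of Vgf were -0.14, -0.09, 0.12 and 0.11. The order of the rats was exactly reversed in both groups. That holds for 126 of the 71631 pairs of probe sets in the table (0.176%), and Vgf was the only probe set in the reverse order of Adcyap1. Without the 2 rats farthest from the median of Vgf (non-stress rats 4 and 5), r was -0.94 (exact permutation p = 0.0208, the smallest that 48 orders can give) and rho was -0.94 (exact permutation p = 0.0417). Leaving out each rat in turn gave r of -0.99 to -0.97 with an adjusted p of 0.0694, the smallest that 7 rats allow over 10 pairs.

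The call depends on the scaling between arrays. When the table's median was subtracted from each array, r was -0.89 (adjusted p = 0.278), and after quantile normalization -0.67 (adjusted p = 0.498). Both scalings were computed on the chosen 379 probe sets.

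**Figure D3:**
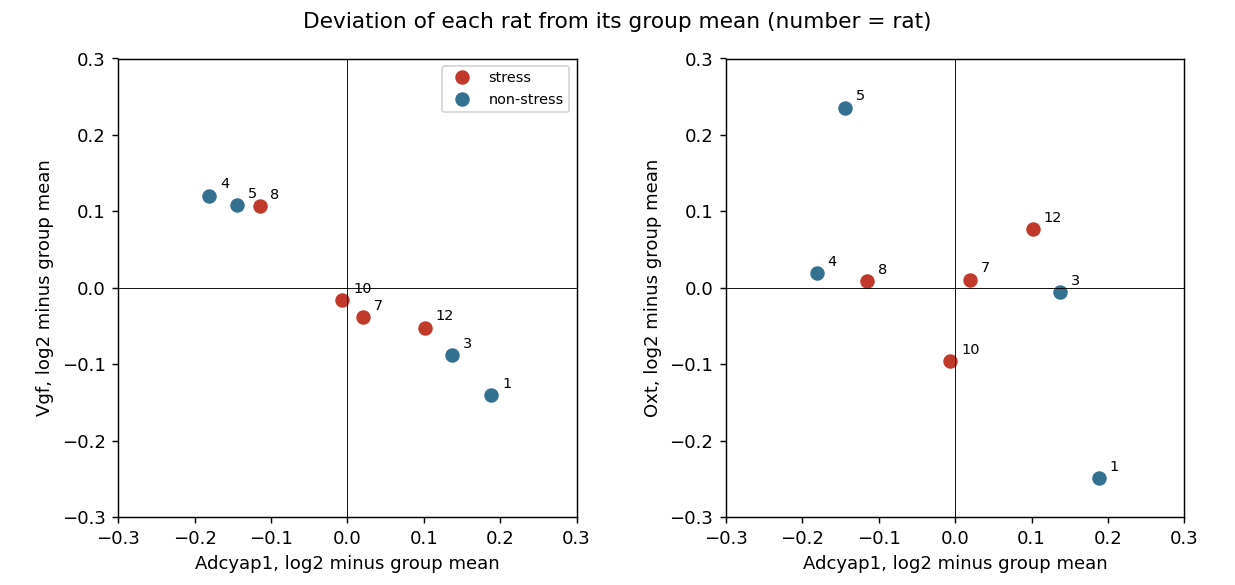
Each point is a rat, labelled with its number, placed by its deviation from its group mean in log2 units, for Adcyap1 on the horizontal axes and for Vgf (left) or Oxt (right) on the vertical axes. Vgf against Adcyap1 falls along a descending line (r -0.98), while Oxt against Adcyap1 (r -0.59) rests on non-stress rats 1 and 5.

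The other 9 pairs did not pass (adjusted p 0.735 to 0.913 by exact permutation). Oxt had r of 0.64 with Vgf, -0.59 with Adcyap1 and -0.58 with Nts. Without the 2 rats farthest from the median of Oxt, non-stress rats 1 and 5, these were 0.03, 0.10 and -0.38. Vip had r of 0.27 with Vgf, 0.12 with Oxt, -0.21 with Nts and -0.29 with Adcyap1. Nts had r of 0.05 with Vgf and -0.09 with Adcyap1. The 4 members that were higher in stressed rats thus had within-group r from -0.58 to 0.64 among themselves.

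**Figure D4:**
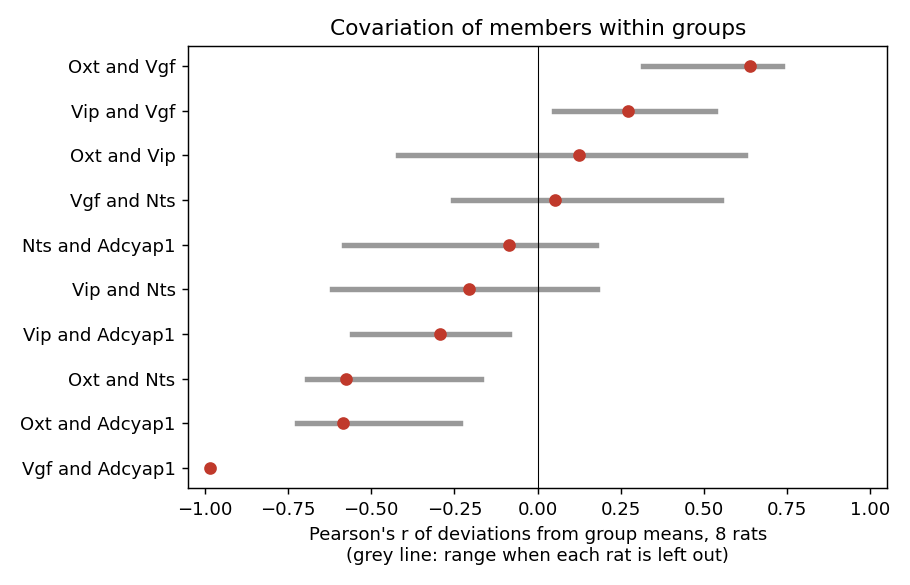
Red points are Pearson's r of the deviations from group means over 8 rats for the 10 pairs of members, and grey lines the range of r when each rat is left out. The Adcyap1 and Vgf pair stays between -0.99 and -0.97, while the lines of 4 other pairs cross 0.

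Likeness to other genes of the table was measured by the same within-group Pearson's r over 8 rats, as a description. Adcyap1 was most like Mid1, a microtubule-associated ubiquitin ligase (r 0.95), Tacr1, the substance P receptor (0.95), and the kinase Pak5 (0.95), all of them lower in stressed rats. Vgf was most like Kcnj9, a G protein-gated potassium channel subunit (0.95), then the sodium channel Scn7a (0.81) and Lefty1, an inhibitor of Nodal signalling (0.78), all of them higher. Kcnj9 was at 9.60 ± 0.09 in stressed and 9.20 ± 0.18 in non-stress rats (SD, n = 4 each), a difference of 0.40 ± 0.09. Over all 209 other lower probe sets the median r with Adcyap1 was 0.60, and over the 210 lower probe sets the median r with Vgf was -0.57. Many lower probe sets thus deviated with Adcyap1 and against Vgf. The higher probe sets did so less: the median r was -0.15 with Adcyap1 (169 probe sets) and 0.16 with Vgf (168 others).

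Medial habenula markers were also lower in stressed rats. All 11 in the table, none of them a member, were lower, where 55.4% of all probe sets were. Their mean log2 signal was 9.71 to 9.78 in stressed rats, against 10.01 to 10.49 in non-stress rats. The table was chosen on this contrast and the list with earlier results known, so the count and the separation are descriptions only. The log2 of their summed signal was 13.69 to 13.77 in stressed and 13.96 to 14.43 in non-stress rats. The mean was 10.26 and 10.49 in non-stress rats 1 and 3, which were high in Adcyap1 and low in Vgf, and 10.01 and 10.10 in rats 4 and 5. Of 10 markers of hippocampal and dentate neurons, a neighbouring tissue, 4 were in the table. Neurod1, a transcription factor (-0.48 ± 0.11), Slc17a7, a vesicular glutamate transporter that the medial habenula also expresses (-0.31 ± 0.08), and the calmodulin-binding protein gene Nrgn (-0.28 ± 0.09) were lower, and Wipf3 was higher (0.26 ± 0.08). Their mean log2 signal was 10.35 to 10.47 in stressed and 10.50 to 10.76 in non-stress rats. Neurod1 was at 10.56 and 10.83 in non-stress rats 1 and 3, and at 10.24 and 10.37 in rats 4 and 5. Slc17a7 was also higher in rats 1 and 3, and Adcyap1 was split in the same way. Nrgn was not (10.84, 11.15, 10.75 and 10.88 in rats 1, 3, 4 and 5), and Wipf3 was lowest in rat 3 (9.66). Among stressed rats Neurod1 was lowest in rat 7 (9.94), while Adcyap1 was lowest in rat 8 (9.84). The array medians were also higher in non-stress rats 1 and 3 (8.70 and 8.77) than in rats 4 and 5 (8.65 and 8.62). Among stressed rats the medians fell in the order 12, 7, 10 and 8, as Adcyap1 did, the reverse of Vgf. Among non-stress rats they fell in the order 3, 1, 4 and 5, and Adcyap1 in the order 1, 3, 5 and 4. These medians are over the chosen probe sets, so they are not a level of the whole array. The part of either marker list, or of these medians, in the values of Adcyap1 and Vgf was not tested.

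Oxt was most like Gramd2b, a GRAM domain protein (r 0.85), Ska1, a kinetochore component (0.83), and Lfng, a glycosyltransferase of the Notch pathway (0.82). Vip was most like the vomeronasal receptor Vom1r22 (0.91), the transcription factor Klf2 (0.87) and the olfactory receptor Or4a77 (0.86). The mean signals of Vom1r22 (6.30) and Or4a77 (4.77) were below that of Vip. Nts was most like Slco1a4, an organic anion transporter of brain endothelium (0.89), Tnfsf10, the death ligand TRAIL (0.85), and the olfactory receptor Or1j1 (0.83). Slco1a4 and Tnfsf10 were lower in stressed rats, by -0.32 ± 0.08 and -0.27 ± 0.08, although Nts was higher. The 3 endothelial markers in the table, of 8, had a mean log2 signal of 9.95 to 10.14 in stressed and 10.31 to 10.36 in non-stress rats.

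Receptors and partners of these peptides were few in the table. Of 12 receptor and binding-protein genes of the members, 1 was present: Ntsr1, the high-affinity neurotensin receptor. Its signal was 8.72, 8.72, 8.80 and 8.81 in stressed rats 7, 8, 10 and 12, against 9.22, 9.35, 8.88 and 9.12 in non-stress rats 1, 3, 4 and 5. Ntsr1 was therefore lower, by -0.38 ± 0.09, while its ligand's precursor Nts was higher. Of 38 other neuropeptide receptors, 4 were present. The neuropeptide Y receptor Npy1r was higher (0.37 ± 0.09), and the somatostatin receptors Sstr4 (-0.42 ± 0.10) and Sstr2 (-0.33 ± 0.10) and Tacr1 (-0.39 ± 0.11) were lower.

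Of 49 other genes listed as peptide precursors, 3 were present and all were lower. They were the tachykinin genes Tac1 (-0.52 ± 0.09) and Tac3 (-0.44 ± 0.09), and Edn1, the endothelin-1 precursor (-0.58 ± 0.14). Edn1 is not a tachykinin gene, but it was not among the 5 members and is outside their count of directions. Tac1 was at 9.07, 9.16, 9.05 and 9.10 in stressed rats 7, 8, 10 and 12, against 9.76, 9.75, 9.49 and 9.46 in non-stress rats 1, 3, 4 and 5. Non-stress rats 1 and 3 were again the highest, as for Adcyap1 and for the array medians. Of 26 peptide-processing and granule genes only the synaptotagmin Syt6 was present (-0.57 ± 0.11), and no convertase. Of 16 genes listed for cAMP signalling, through which VIP and PACAP receptors act, or as CREB-related factors, 4 were present. The cyclase Adcy1 was higher (0.27 ± 0.08), while Creb3l1, a membrane-bound transcription factor (-0.29 ± 0.10), and 2 phosphodiesterases, Pde1a (-0.35 ± 0.08) and Pde2a (-0.38 ± 0.10), were lower. Genes responsive to glucocorticoids had a mean log2 signal of 9.67 to 10.09 in stressed and 9.15 to 9.25 in non-stress rats over the 10 listed, of which 9 were higher and the kinase gene Map3k6 was lower (-0.38 ± 0.10). All 10 were present because that list was drawn up with these results known. In stressed rat 8 the mean of this list was 9.67, the lowest of the stressed rats, where Vgf (10.07) and Nts (7.11) were the highest and Adcyap1 (9.84) the lowest. The array median of stressed rat 8 (8.60) was also the lowest. Non-stress rat 1 had the lowest mean of the glucocorticoid list in its group (9.15). In that rat, by contrast, Vgf (9.52) was the lowest of the non-stress rats and Adcyap1 (10.61) the highest. Whether the members follow this list was not tested.

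Some of these precursor genes are textbook examples of control by cAMP or by nuclear receptors, and the stretches that carry such letters are shown as a description of the genes, without a link to the direction of their differences. The sequences are from RefSeq (GRCr8), read 5′ to 3′ on the strand of the gene, 30 bases each, with the matched letters in capitals. The 250 bases before the start in RefSeq's table were searched on both strands in all 5 members.
Vgf, TGACGTCA, chr12:25277092-25277121, minus strand: tgaatgaacatTGACGTCAatggggcgggg
Vip, TGACGT, chr1:44470371-44470400, plus strand: ggatcaccactgTGACGTctttcgaggagc
Nts, TGACNTCA, chr7:39460942-39460971, minus strand: ctgtacagtcaTGACATCAccctcctgctc
Nts, TGANTCA, chr7:39461082-39461111, minus strand: aaccctttccgTGAGTCAgaaaccctgagc
Oxt, AGGTCA on both strands, chr3:138235562-138235591, plus strand: ccAGGTCAttagctgaggcggTGACCTtga

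The complete cAMP response element, TGACGTCA, began 90 bases before the start of Vgf, and 1.59% of 33469 rat promoter windows of this length held it. Vip held its first 6 letters, TGACGT, 97 bases before the start (6.95% of windows, those with the complete element included). Nts held TGACATCA 72 bases before the start, a match to TGACNTCA (8.88% of windows, again with the complete element included). An AP-1 match, TGANTCA (6.34% of windows), began 212 bases before the start of Nts. Oxt held the nuclear receptor half-site AGGTCA on each strand, 190 and 171 bases before the start. Of all windows 14.1% held it on either strand, and the share with it on both strands was not counted. The E-box CACGTG (5.59% of windows) was found in Vgf, 65 bases before the start. TATAAA (12.9% of windows) was found in Vip, Vgf and Adcyap1.

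Of the motifs searched, the window of Adcyap1 held TATAAA alone. The windows of Oxt and Nts lie upstream of the annotated gene. Those of Vip and Vgf lie inside the annotated span, which begins farther upstream, and whether they are exonic or intronic in those models was not looked up. A match is a run of letters and is not evidence of binding, and its absence says nothing beyond this window.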

How the data were processed

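The deposited values are log2 signals per probe set, as their range and the authors' difference column show. How the authors corrected background, summarized and normalized them is not stated. RNA was amplified with a whole-transcript kit and biotin-labelled, per the labels' protocols. The series matrix and the annotated table did not differ at any of their 379 probe sets. The p-value and log2 difference columns are the authors' own, the latter equal to the difference of group means. Depth does not apply, and precision is limited by 4 arrays per group. No scan batch was given.

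Gene symbols were those of the platform annotation (283 probe sets with 1 symbol, 5 with several, 91 with none), updated through gene IDs to RefSeq. Means were compared with limma 3.58.1 (lmFit, eBayes) in R 4.3.3 on all 379 probe sets, unpaired, since no rat number is shared. Standard errors are limma's and rest on the spread of chosen probe sets. The limma and permutation steps were tested on simulated data. Members, gene lists and motifs were chosen with earlier results of these data, and for the motifs the promoter sequences, known. Genes named are the members, the 3 probe sets most like each, and listed peptide-related genes in the table. Gpr151, Neurod1, Slc17a7, Nrgn, Wipf3 and Map3k6, from marker lists, were named after their values were seen. Alternatives were array scaling, group medians, linear means, a filter on dim probe sets, another variance model, Spearman correlation and leaving out each rat.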

Additional observations from a re-analysis of the deposited data

Results flagged for a closer look

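In 3 of 84 groups of 4 values, 1 rat stood far from the rest of its group; about 1 group in 20 does so by chance. The somatostatin receptor gene Sstr4 was at 9.47 in stressed rat 7, against 9.27 to 9.30 in the other stressed rats. Wipf3, from the hippocampal and dentate markers, was at 10.24 in stressed rat 12, against 10.04 to 10.07 in the other stressed rats. It was at 9.66 in non-stress rat 3, against 9.89 to 9.90 in the other non-stress rats. No value of the 5 precursor genes stood apart in this way.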

How the results depend on the processing

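The 5 differences kept their direction under every alternative run. Quantile normalization moved Vip to 0.34, beyond its spread, and raised the table's median difference by 0.10. It also moved Nts from 0.27 to 0.15 and Adcyap1 from -0.46 to -0.35, each by less than its pooled SD within groups. Leaving out each rat gave 0.51 to 0.67 for Oxt, 0.46 to 0.51 for Vip, 0.25 to 0.34 for Vgf, 0.21 to 0.33 for Nts and -0.52 to -0.40 for Adcyap1, with 4 members higher throughout and 4 to 5 not overlapping. Without the dimmest 25% of probe sets 2 of the 3 remaining members were higher. The number of pairs past the threshold was 0 after median scaling, 0 after quantile normalization and 0 without each rat. With 7 rats a lone pair could not pass, since its smallest adjusted p by exact permutation was 0.0694. The last 0 therefore says nothing of how the call depends on a rat. Pairs that did not pass turned sign: by quantile normalization Oxt with Vip (-0.56), Vip with Vgf (-0.12), Vip with Nts (0.12), Vip with Adcyap1 (0.39) and Nts with Adcyap1 (0.014); by median scaling Vip with Nts (0.17); and Oxt with Vip by Spearman (-0.24) and by SD-scaled deviations (-0.043). Without each rat r was -0.42 to 0.62 for Oxt with Vip, -0.62 to 0.18 for Vip with Nts, -0.25 to 0.55 for Vgf with Nts and -0.58 to 0.18 for Nts with Adcyap1. The causes were not tested. No paired analysis was possible because the groups share no rat number.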
